A study of Mus musculus with 70 samples.

Results

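The cerebella of mice lacking the short isoform of Capicua (Cic-S-KO) were compared directly with the cerebella of mice without the long isoform (Cic-L-KO), both at 12 weeks of age, across all expressed genes. The comparison holds 15 of the 70 samples of the series, 7 from Cic-S-KO and 8 from Cic-L-KO, and 16053 genes passed the filter on low counts. All 15 samples carry the label of batch 2, as do 8 cerebella of wild-type littermates pooled from both lines (WT), which were not in the fit and are given as an untested reference. The labels give genotype, tissue and age, and they do not say whether each sample was a separate animal, so p-values measure the spread between these samples. The measurement is the number of sequencing reads assigned to each gene in polyadenylated RNA of whole cerebellum. In such bulk RNA, fewer cells of a type and less RNA per cell cannot be told apart.

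Capicua, encoded by Cic, is a DNA-binding repressor of the HMG-box family that works in a complex with the related proteins ATXN1 and ATXN1L. It holds down genes that the RAS to ERK signalling cascade induces, among them PEA3-type ETS factors, Sprouty proteins and MAP kinase phosphatases, and ERK signalling relieves this repression. The short and long isoforms start from separate promoters and differ at their N-terminal ends. In the cerebellum, the ATXN1 and Capicua complex is best known for its part in the degeneration of Purkinje cells in spinocerebellar ataxia caused by expanded ATXN1.

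The total count per sample was 20440799 to 28784725 reads in Cic-S-KO and 23315157 to 29611779 reads in Cic-L-KO. Counts of Y-linked genes and Xist split each group by sex, giving 3 male and 4 female Cic-S-KO samples and 4 male and 4 female Cic-L-KO samples. Summed markers of brainstem and caudal hindbrain were 33.7 to 153 CPM (read counts scaled to a common library size) in Cic-S-KO and 33.2 to 204 CPM in Cic-L-KO, and Cic-S-KO replicate 6 and Cic-L-KO replicates 3 and 4 stood highest, at 125 CPM or more against 87.8 CPM or less in the others. Summed choroid plexus markers spanned 466 to 7539 CPM in Cic-S-KO and 1101 to 7267 CPM in Cic-L-KO, and all 11 tested choroid plexus genes had a log2 difference below 0, with a median of -0.41. In edgeR 0 of these 11 passed, 0 had an unadjusted p under 0.05, and DESeq2 called 0. Cerebellar markers were plentiful in all 15 samples, where summed Purkinje cell markers were at least 13666 CPM and summed granule neuron markers at least 6244 CPM. Without the 3 samples highest in brainstem markers, 2218 genes were called, of which 1612 were among those called with all samples.

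In all, 1906 of 16053 genes, or 11.9%, differed between the knockouts at an adjusted p under 0.05, 876 higher and 1030 lower in Cic-S-KO. Most of these differences were small. The median absolute log2 difference of the called genes was 0.26, 408 genes differed by at least 0.5 on the log2 scale, and 81 by at least 1, of which 24 were higher and 57 lower in Cic-S-KO. For 450 genes, or 2.8% of those tested, the 7 Cic-S-KO samples and the 8 Cic-L-KO samples did not overlap. The median log2 difference over all tested genes was -0.0014. Called genes were spread over the chromosomes analysed, between 9.73% of the tested genes on chromosome 12 and 14.8% on chromosome 4. Chromosome 1 was not analysed here.

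**Figure D1:**
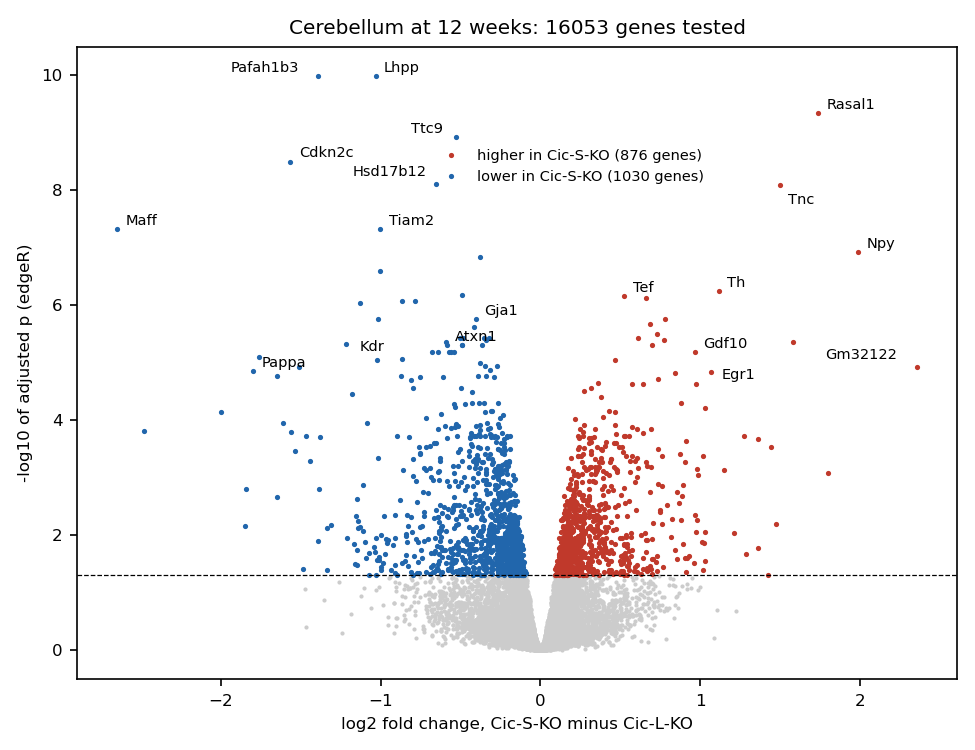
Log2 difference between the knockouts (x axis, Cic-S-KO minus Cic-L-KO) against -log10 of the adjusted p (y axis) for each of the 16053 tested genes, with the dashed line at an adjusted p of 0.05. The 876 genes higher in Cic-S-KO and the 1030 genes lower in Cic-S-KO are coloured, and Maff, at -2.65, lies farthest to the left among the labelled genes.

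Reads of Cic itself did not separate the groups. Its level was 183 to 227 CPM (median 215) in Cic-S-KO and 195 to 231 CPM (median 212) in Cic-L-KO, a log2 difference of 0.00 ± 0.05 (SE, adjusted p = 0.981, edgeR). Counts per gene do not resolve the isoforms, so this value does not check which isoform each line lacks. Atxn1, the partner whose polyglutamine expansion causes ataxia, was lower in Cic-S-KO. Its level was 36.8 to 47.1 CPM (median 44.2) in Cic-S-KO against 52.8 to 74 CPM (median 63.6) in Cic-L-KO, with WT at 39.8 to 57.3 CPM. The log2 difference of Atxn1 was -0.59 ± 0.06 (SE, adjusted p = 5.03e-06), and the knockouts did not overlap. An exon of Atxn1 overlaps one of Gmpr on the other strand, and the strand used in counting is not given in the sources used here. Its paralog Atxn1l differed by 0.07 ± 0.05 on the log2 scale (SE, adjusted p = 0.389). Atxn1 was the only 1 of the 13 genes of the Capicua complex and its corepressors to pass the test (7.69%, against 11.9% of all genes).

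Of the 14 tested genes that start within 200 kb of Cic on chromosome 7, Cic itself included, 2 were called (14.3%, against 11.9% of all genes). Both were lower in Cic-S-KO. Pafah1b3, a catalytic subunit of platelet-activating factor acetylhydrolase, had the smallest p of all genes. It lies at chr7:25295049-25297986 on the minus strand, tail to tail with Cic at chr7:25267704-25294159 on the plus strand, and strand was likewise not known for this pair. The 7 Cic-S-KO samples had 9.27 to 12.7 CPM of Pafah1b3 (median 10.6) and the 8 Cic-L-KO samples 25 to 31.7 CPM (median 28.1). All Cic-L-KO samples therefore stood above all Cic-S-KO samples and above the WT range of 11 to 13.4 CPM. The log2 difference was -1.39 ± 0.07 (SE, adjusted p = 1.04e-10). Lipe, hormone-sensitive lipase, was lower by a smaller amount, with overlapping groups and a log2 difference of -0.36 ± 0.08 (SE, adjusted p = 0.00772). The other neighbours, among them the ETS repressor Erf (0.15 ± 0.08, adjusted p = 0.255) and the kainate receptor gene Grik5 (-0.00 ± 0.04, adjusted p = 0.963), did not pass. Within 1 Mb of Cic, 4 of 44 tested genes were called, a share of 9.09%, against 11.9% of all genes.

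Of 20 genes listed as known Capicua targets, 4 were called (20%, against 11.9% of all genes), 3 lower and 1 higher in Cic-S-KO. The median log2 difference of the list was -0.15. Maff, a small MAF transcription factor, had the most negative log2 difference of all called genes. Its level was 0.712 to 2.56 CPM (median 1.06) in Cic-S-KO and 5.67 to 9.23 CPM (median 8.18) in Cic-L-KO. The Cic-S-KO samples lay around the WT range of 0.925 to 1.73 CPM, and every Cic-L-KO sample lay above it. The log2 difference was -2.65 ± 0.19 (SE, adjusted p = 4.75e-08).

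Dusp4, a nuclear MAP kinase phosphatase, was 7.47 to 20.8 CPM in Cic-S-KO (median 13.6) and 20.1 to 35.1 CPM in Cic-L-KO (median 30.6), a log2 difference of -1.15 ± 0.21 (SE, adjusted p = 0.00231). The groups overlapped only narrowly, and Dusp4 was not called in females alone (-1.12, adjusted p = 0.137). Ccnd1, which encodes cyclin D1, was 22.3 to 31.4 CPM against 30.2 to 39.6 CPM, a log2 difference of -0.39 ± 0.07 (SE, adjusted p = 0.000846). Ccnd1 was not called in males alone (-0.35, adjusted p = 0.0994). Spry1, a Sprouty inhibitor of receptor tyrosine kinase signalling, went the other way, at 6.39 to 9.91 CPM in Cic-S-KO against 4.72 to 6.9 CPM in Cic-L-KO (log2 difference 0.36 ± 0.10 SE, adjusted p = 0.0205). The call of Spry1 was lost in males alone (0.30, adjusted p = 0.25) and in females alone (0.42, adjusted p = 0.1).

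The other 16 listed targets did not pass. The PEA3 factors differed by 0.08 ± 0.10 for Etv1 (SE, adjusted p = 0.664), by -0.13 ± 0.06 for Etv4 (adjusted p = 0.201) and by -0.18 ± 0.14 for Etv5 (adjusted p = 0.486) on the log2 scale. Dusp6, an ERK phosphatase, differed by 0.03 ± 0.10 (SE, adjusted p = 0.881). Spry4 and the secreted neuropeptide precursor gene Vgf had wide, overlapping ranges. Spry4 was 14.3 to 39.2 CPM in Cic-S-KO and 25.8 to 46.9 CPM in Cic-L-KO, with an adjusted p of 0.148. Vgf was 35.5 to 83.8 CPM and 52.2 to 120 CPM, with an adjusted p of 0.285.

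Promoter sequence was read for the called genes that hold an octamer bound by Capicua, to show where such letters lie beside the values. The octamers searched were TGAATGAA and TGAATGGA on both strands, in the RefSeq windows of 300 bases (GRCm38.p6) that run from 250 bases before each start to 50 after it. Of 32851 windows, 811 held at least 1 octamer, or 2.47%. Windows matched by symbol for 70.7% of the tested and 77.1% of the called genes, under the 80% needed, so shares among called genes were not compared. An octamer was found in windows of 41 called genes analysed here, 31 lower and 10 higher in Cic-S-KO. All called genes, 1030 lower and 876 higher, include genes whose windows were not read here, so the splits were not compared. Of the 20 listed targets 11 had a window, and 2 held an octamer, Maff and Spred3. The sites shown are those of the 4 called genes with the lowest log2 differences that hold an octamer, of Mafg, a second small MAF gene, and of Wif1, a secreted Wnt inhibitor with the highest log2 difference among the 41. They were chosen after their values were seen. Capitals mark the octamer, and each is written on the strand of the gene.
Maff (chr15:79347507-79347536, plus strand): ctgggtttttaTGAATGAAaggaatcctgt
Upp1 (chr11:9117944-9117973, plus strand): atagctgtgacTGAATGAAtgagtcatttc
Dmp1 (chr5:104197349-104197378, plus strand): atgccaggatgTTCATTCAccttgcattgt
Ptpn5 (chr7:47132800-47132829, minus strand): gaagaaaatcaTGAATGAAatggatgcggc
Mafg (chr11:120633581-120633610, minus strand): tcgccgcttcaTGAATGGAacccacgtgac
Wif1 (chr10:121033864-121033893, plus strand): gtgtccccgttTTCATTCAcctggcgcagg
The octamer of Maff spans a RefSeq start that lies inside the gene as GENCODE draws it, that of Dmp1 is read on the opposite strand at a RefSeq start upstream of the GENCODE gene, and both windows were kept. The octamer of Wif1 is likewise on the opposite strand. The 250 bases before the start of Mafg (chr11:120633548-120633797, minus strand) are shown whole for context.
Mafg upstream: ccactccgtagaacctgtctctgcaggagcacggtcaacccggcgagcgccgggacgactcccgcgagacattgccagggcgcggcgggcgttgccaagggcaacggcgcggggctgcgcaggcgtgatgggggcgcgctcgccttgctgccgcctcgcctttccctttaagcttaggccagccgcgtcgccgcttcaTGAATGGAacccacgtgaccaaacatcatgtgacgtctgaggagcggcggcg

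By that choice the first 4 genes were lower in Cic-S-KO, and Mafg was lower too. Mafg was 63.5 to 98.7 CPM in Cic-S-KO (median 70.9) and 101 to 117 CPM in Cic-L-KO (median 110), without overlap, a log2 difference of -0.51 ± 0.08 (SE, adjusted p = 0.000631). Dmp1, which encodes dentin matrix protein, was 10.6 to 15.5 CPM against 21.5 to 31.7 CPM, also without overlap (log2 difference -1.0 ± 0.08 SE, adjusted p = 2.52e-07). Ptpn5, the neuronal tyrosine phosphatase STEP, was 22 to 38.7 CPM against 35.1 to 57.7 CPM (-0.73 ± 0.13 SE, adjusted p = 0.0018). Upp1, uridine phosphorylase, was a low gene at 0.364 to 1.69 CPM against 1.15 to 2.98 CPM (-1.33 ± 0.31 SE, adjusted p = 0.00764). Wif1 went the other way, at 4.2 to 8.94 CPM in Cic-S-KO (median 5.34) against 2.19 to 6.31 CPM in Cic-L-KO (median 2.8), with overlap (0.97 ± 0.23 SE, adjusted p = 0.00889). A match is a description of the letters in the window and not evidence of binding.

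Among the genes with the smallest p that were lower in Cic-S-KO, most were at or near the WT range in Cic-S-KO and above it in Cic-L-KO. Lhpp, a histidine phosphatase, was 22.3 to 26.1 CPM in Cic-S-KO (median 24.9), 45.7 to 57.8 CPM in Cic-L-KO (median 49) and 19.8 to 26.4 CPM in WT. Its log2 difference was -1.03 ± 0.05 (SE, adjusted p = 1.04e-10). Cdkn2c, the CDK4 and CDK6 inhibitor p18, was 2.71 to 4.25 CPM (median 3.27) against 8.96 to 11.7 CPM (median 10.2), with WT at 3.36 to 5.56 CPM. Its log2 difference was -1.57 ± 0.10 (SE, adjusted p = 3.23e-09). Hsd17b12, an enzyme of long-chain fatty acid elongation, was 105 to 129 CPM against 163 to 194 CPM, with WT at 108 to 133 CPM (log2 difference -0.66 ± 0.04 SE, adjusted p = 7.91e-09). In all 3 genes the knockouts did not overlap.

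Tiam2, an exchange factor for the GTPase Rac, was 11.2 to 14 CPM in Cic-S-KO and 18.9 to 28.7 CPM in Cic-L-KO (log2 difference -1.0 ± 0.08 SE, adjusted p = 4.75e-08). Pappa, a protease that cleaves IGF-binding proteins, was 4.74 to 9.26 CPM (median 6.94) against 14.7 to 29.5 CPM (median 24.8), a log2 difference of -1.80 ± 0.18 (SE, adjusted p = 1.4e-05). For Pappa, WT ranged from 7.55 to 21.5 CPM and overlapped both knockouts. Cd164l2 was low, at 1.12 to 1.76 CPM against 2.69 to 4.18 CPM (-1.22 ± 0.13 SE, adjusted p = 4.73e-06). Its exons overlap those of the receptor gene Gpr3 on the other strand, which differed by -1.18, and Tiam2 overlaps Tfb1m in the same way. Of the 10 most negative log2 differences, among called genes whose mean log2 CPM reached 1, the remaining 5 were those of the pheromone receptor gene Vmn2r2, the non-coding genes Gm33489 and 6530403H02Rik and the pseudogenes Gm7162 and Gm16574, between -1.65 for Vmn2r2 and -1.38 for Gm16574, which was not called in males alone (-0.90, adjusted p = 0.0735). Vmn2r2 has many close paralogs, and reads of a pseudogene can stem from its parent gene, so these assignments are uncertain.

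The 10 largest positive log2 differences, among called genes whose mean log2 CPM reached 1, ran from 2.36 for the long non-coding RNA Gm32122 to 1.07 for Egr1. Rasal1, a GTPase-activating protein that switches RAS off, was 12.2 to 16.7 CPM in Cic-S-KO (median 14.9) and 3.56 to 5.79 CPM in Cic-L-KO (median 4.38), with WT at 8.27 to 13.1 CPM. Its log2 difference was 1.74 ± 0.10 (SE, adjusted p = 4.63e-10). Npy, the precursor of neuropeptide Y, was 9.44 to 15.3 CPM (median 10.7) against 1.59 to 4.09 CPM (median 2.74), with WT at 6.45 to 10.2 CPM. Its log2 difference was 1.99 ± 0.16 (SE, adjusted p = 1.21e-07). Tnc, the matrix glycoprotein tenascin C, was 25.9 to 38.5 CPM against 8.45 to 12.4 CPM, with WT at 20.7 to 37.8 CPM (log2 difference 1.5 ± 0.10 SE, adjusted p = 8.29e-09). Tnc overlaps the transcript 8030451A03Rik on the other strand. In these 3 genes every Cic-L-KO sample lay below every WT and every Cic-S-KO sample.

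Th, which encodes the rate-limiting enzyme of dopamine and noradrenaline synthesis, had the other pattern. It was 18.6 to 28.2 CPM in Cic-S-KO (median 24.7), 8.69 to 13.1 CPM in Cic-L-KO (median 12.1) and 7.9 to 12.5 CPM in WT, so that Cic-S-KO stood alone. The log2 difference of Th was 1.12 ± 0.10 (SE, adjusted p = 5.79e-07). Gm32122 was likewise 2.9 to 6.33 CPM in Cic-S-KO, against 0.426 to 2.14 CPM in Cic-L-KO and 0.218 to 0.982 CPM in WT. Fxyd7, a regulator of the sodium pump, differed by 1.21 ± 0.27 (SE, adjusted p = 0.00921) with overlapping groups, by 0.60 in males alone (adjusted p = 0.336) and by 1.94 in females alone (adjusted p = 0.000131). Gm15083 (1.58, adjusted p = 4.48e-06) and A330015K06Rik (1.15, adjusted p = 0.000744) are annotated as antisense transcripts, and the strand used in counting is not given in the sources used here. A330015K06Rik was not called in females alone (1.12, adjusted p = 0.0714). Prl2c3, of a family of near-identical prolactin-like genes, differed by 1.29 (adjusted p = 0.021). Prl2c3 was not called without the 3 samples highest in brainstem markers, without the filter on low counts or in females alone (0.95, adjusted p = 0.0807).

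**Figure D2:**
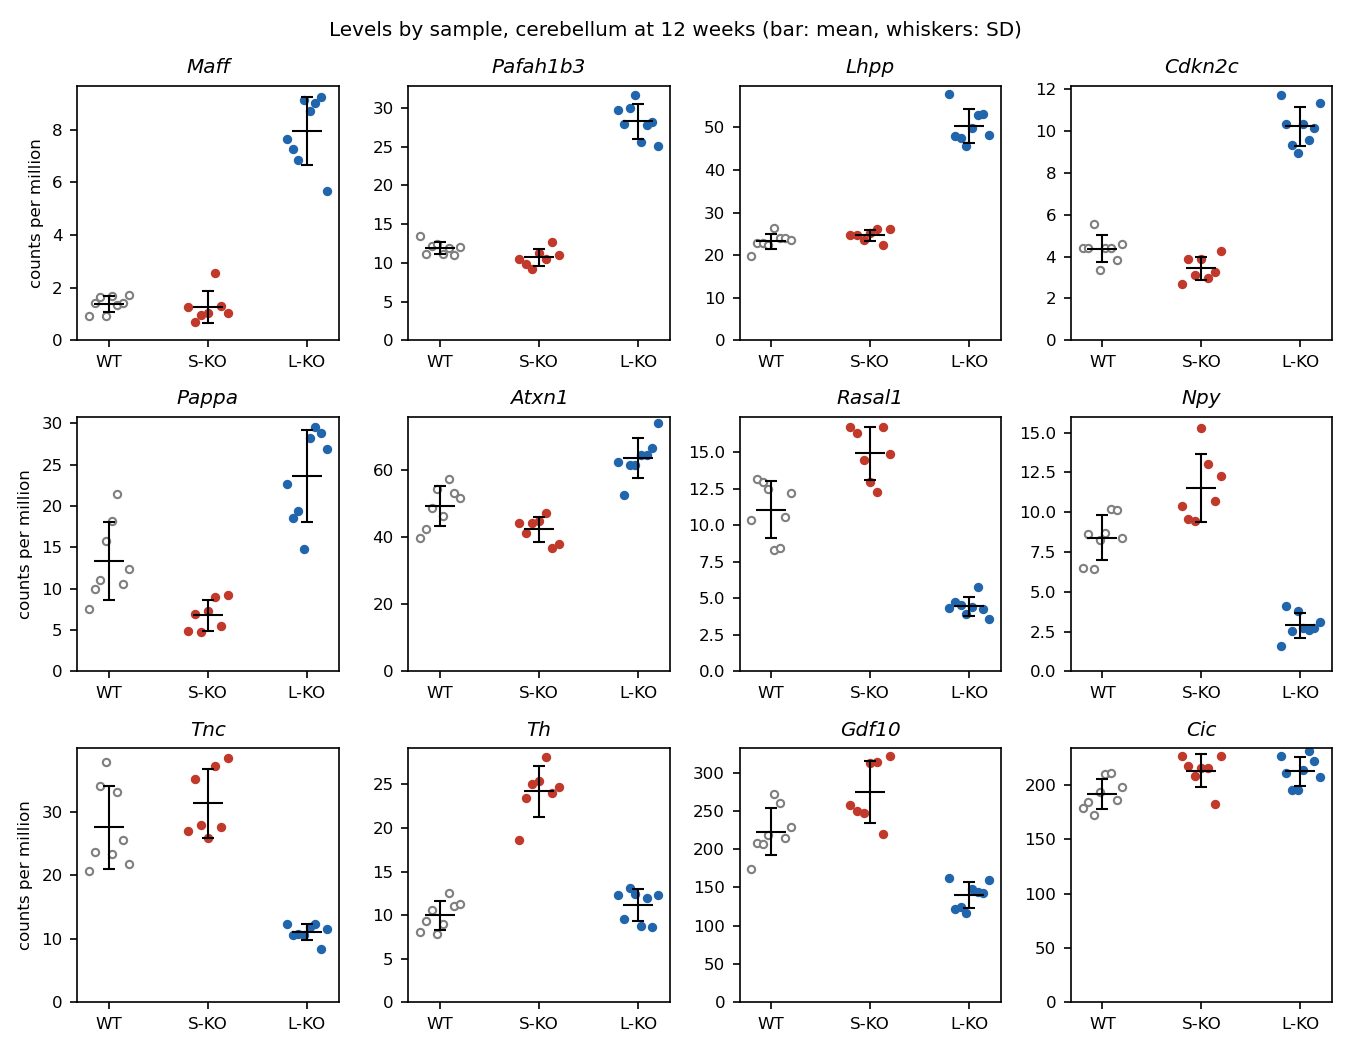
CPM (y axis, linear, from 0) of 12 genes in each WT (open grey points), Cic-S-KO (red) and Cic-L-KO (blue) sample, with the mean as a bar and the SD as whiskers. The first 5 genes are high in Cic-L-KO alone or highest there, Rasal1, Npy and Tnc are low in Cic-L-KO, Th is high in Cic-S-KO, and Cic overlaps in all groups.

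Only 2 called genes had all 8 WT samples strictly between the knockouts without overlap. Ttc9, which encodes a tetratricopeptide repeat protein, was 87.5 to 96.8 CPM in Cic-S-KO, 97.9 to 109 CPM in WT and 126 to 140 CPM in Cic-L-KO. Its log2 difference between the knockouts was -0.53 ± 0.03 (SE, adjusted p = 1.2e-09). Gpr153, an orphan receptor gene, ran the other way, at 39.1 to 48.8 CPM in Cic-S-KO, 33.3 to 37.6 CPM in WT and 22.3 to 30.7 CPM in Cic-L-KO (log2 difference 0.66 ± 0.06 SE, adjusted p = 7.6e-07).

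Purkinje cell genes were higher in Cic-S-KO where they differed. Of 23 tested Purkinje markers 8 were called, all higher (34.8%, against 11.9% of all genes), 21 of 23 had a positive log2 difference, and the median was 0.13. Without Cic-S-KO replicate 6, the sample with the lowest summed Purkinje markers and the highest brainstem markers of its group, 13 were called. The lowest count was 6, without Cic-S-KO replicate 2. Males alone gave 5, females alone gave 3, and 8 were called without the 3 samples highest in brainstem markers. Doc2b, a calcium sensor of vesicle release, was 132 to 181 CPM against 102 to 138 CPM (log2 difference 0.48 ± 0.07 SE, adjusted p = 0.000173). Rora, a nuclear receptor that Purkinje cells need for survival, differed by 0.30 ± 0.06 (adjusted p = 0.00294), and Calb1, the calcium buffer calbindin, by 0.26 ± 0.06 (adjusted p = 0.00478). The defining marker Pcp2 differed by -0.00 ± 0.07 (adjusted p = 1) and Itpr1, the abundant Purkinje calcium-release channel, by 0.17 ± 0.07 (adjusted p = 0.0984).

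Granule neuron markers mostly did not pass: 2 of 20 were called, both lower in Cic-S-KO (10%, against 11.9% of all genes), with a median of -0.06. Males alone gave 3 and females alone 9. The summed level of the list was 6244 to 8209 CPM in female Cic-S-KO and 8961 to 9550 CPM in female Cic-L-KO samples, without overlap, against 9095 to 9305 CPM in male Cic-S-KO and 6979 to 9266 CPM in male Cic-L-KO samples. Whether the list differed between the sexes was not tested. Gabrd, the delta subunit of extrasynaptic GABA-A receptors, was 84.3 to 126 CPM against 122 to 165 CPM (log2 difference -0.35 ± 0.08 SE, adjusted p = 0.0119), by -0.18 in males alone (adjusted p = 0.206) and by -0.49 in females alone (adjusted p = 0.04). Gabra6, the subunit that defines granule neurons, differed by -0.05 ± 0.11 (adjusted p = 0.836). Svep1 differed by -0.43 ± 0.12 (adjusted p = 0.0245), by -0.09 in males alone (adjusted p = 0.726) and by -0.72 in females alone (adjusted p = 0.00172). It was not called without Cic-S-KO replicate 4, and 4 granule markers were called without the 3 samples highest in brainstem markers. Of 15 inhibitory interneuron markers 2 were called (13.3%, against 11.9% of all genes), both lower in Cic-S-KO. Ptprk, a receptor tyrosine phosphatase, differed by -0.40 ± 0.07 (adjusted p = 0.00121), and Prkcd, protein kinase C delta, by -0.20 ± 0.05 (adjusted p = 0.00872). Prkcd was not called in males alone (-0.18, adjusted p = 0.119) or in females alone (-0.20, adjusted p = 0.0924). Ptprk was not called in females alone (-0.28, adjusted p = 0.0559). Gad1, which makes GABA, was level at -0.00 ± 0.05 (adjusted p = 0.994). Of 5 unipolar brush cell markers 0 passed in edgeR, with 0 at an unadjusted p under 0.05, and DESeq2 called 0. Of 15 microglia markers 0 passed, with 2 at an unadjusted p under 0.05, and DESeq2 called 1. Blood markers (0 of 7) and forebrain markers (0 of 6) had 0 and 1 at an unadjusted p under 0.05, and DESeq2 called 0 in both.

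Bergmann glia and astrocyte markers had a larger share of called genes, 10 of 18 (55.6%, against 11.9% of all genes), 7 higher and 3 lower in Cic-S-KO, with a median of 0.08. Gdf10, a BMP-family ligand that marks Bergmann glia, was 220 to 322 CPM in Cic-S-KO (median 257) and 117 to 163 CPM in Cic-L-KO (median 143), with WT at 175 to 272 CPM. The knockouts did not overlap, and the log2 difference was 0.97 ± 0.09 (SE, adjusted p = 6.7e-06). Slc1a3, the glutamate transporter GLAST, differed by 0.37 ± 0.06 (adjusted p = 0.000543) and Aldh1l1, an enzyme of folate metabolism used as an astrocyte marker, by 0.28 ± 0.04 (adjusted p = 0.00012). Gja1, the gap junction protein connexin 43, went the other way, at 297 to 321 CPM in Cic-S-KO against 376 to 465 CPM in Cic-L-KO. WT was 301 to 344 CPM, and the log2 difference of Gja1 was -0.40 ± 0.04 (SE, adjusted p = 1.76e-06). The protease inhibitor gene A2m was also lower, by -0.47 ± 0.08 (adjusted p = 0.00162), and Gfap, a marker of reactive astrocytes, differed by -0.08 ± 0.09 (adjusted p = 0.614).

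In the oligodendrocyte lineage, 2 of 11 precursor markers were called (18.2%, against 11.9% of all genes), both higher in Cic-S-KO. Gpr17, a receptor of cells committed to differentiate, was 17.9 to 27.7 CPM against 11 to 17.1 CPM, without overlap (log2 difference 0.67 ± 0.11 SE, adjusted p = 0.000631), and differed by 0.43 in males alone (adjusted p = 0.0682). Nkx2-2, a transcription factor of the same stage, differed by 0.46 ± 0.09 (adjusted p = 0.00164). Nkx2-2 was not called in males alone (0.39, adjusted p = 0.0696) or in females alone (0.52, adjusted p = 0.0518). Without Cic-S-KO replicate 6, 4 precursor markers were called. Females alone gave 1, which was Gpr17 (0.85, adjusted p = 0.00256), and males alone gave 1, which was neither Gpr17 nor Nkx2-2. Of 22 myelin markers 4 were called (18.2%, against 11.9% of all genes), 2 in each direction. Gjc3, connexin 29, differed by 0.34 ± 0.05 (adjusted p = 0.000141) and Opalin by 0.69 ± 0.12 (adjusted p = 0.000657). Hapln2, a link protein of nodes of Ranvier, differed by -0.64 ± 0.13 (adjusted p = 0.0058) and Ndrg1 by -0.31 (adjusted p = 0.0374). Hapln2 was not called in males alone (-0.69, adjusted p = 0.0543) or in females alone (-0.60, adjusted p = 0.117). The call of Ndrg1 was lost when any single sample other than Cic-S-KO replicate 6 and Cic-L-KO replicates 1 and 2 was left out.

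Endothelial and pericyte markers were lower in Cic-S-KO where they differed. Of 13 tested, 5 were called, all lower (38.5%, against 11.9% of all genes), and the median of the list was -0.25. Kdr, the main VEGF receptor, was 8.5 to 14.3 CPM in Cic-S-KO (median 11.3) and 17.7 to 23.7 CPM in Cic-L-KO (median 21.2), with WT at 7.51 to 11.6 CPM. The log2 difference was -0.87 ± 0.10 (SE, adjusted p = 8.84e-06), and the knockouts did not overlap. Cldn5, the tight junction protein of the blood-brain barrier, was 14.1 to 25 CPM against 27.8 to 39.2 CPM, also without overlap (-0.69 ± 0.10 SE, adjusted p = 0.000286). Abcc9, a pericyte potassium channel regulator, differed by -0.52 ± 0.08 (adjusted p = 0.000355), whereas the general endothelial marker Pecam1 differed by -0.17 ± 0.12 (adjusted p = 0.399). Summed over the list, the level was 262 to 320 CPM in the 3 male and 363 to 391 CPM in the 4 female Cic-S-KO samples, against 386 to 418 CPM in Cic-L-KO. Males alone gave 8 called members and females alone 3, and 3 were called without Cic-S-KO replicate 2.

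**Figure D3:**
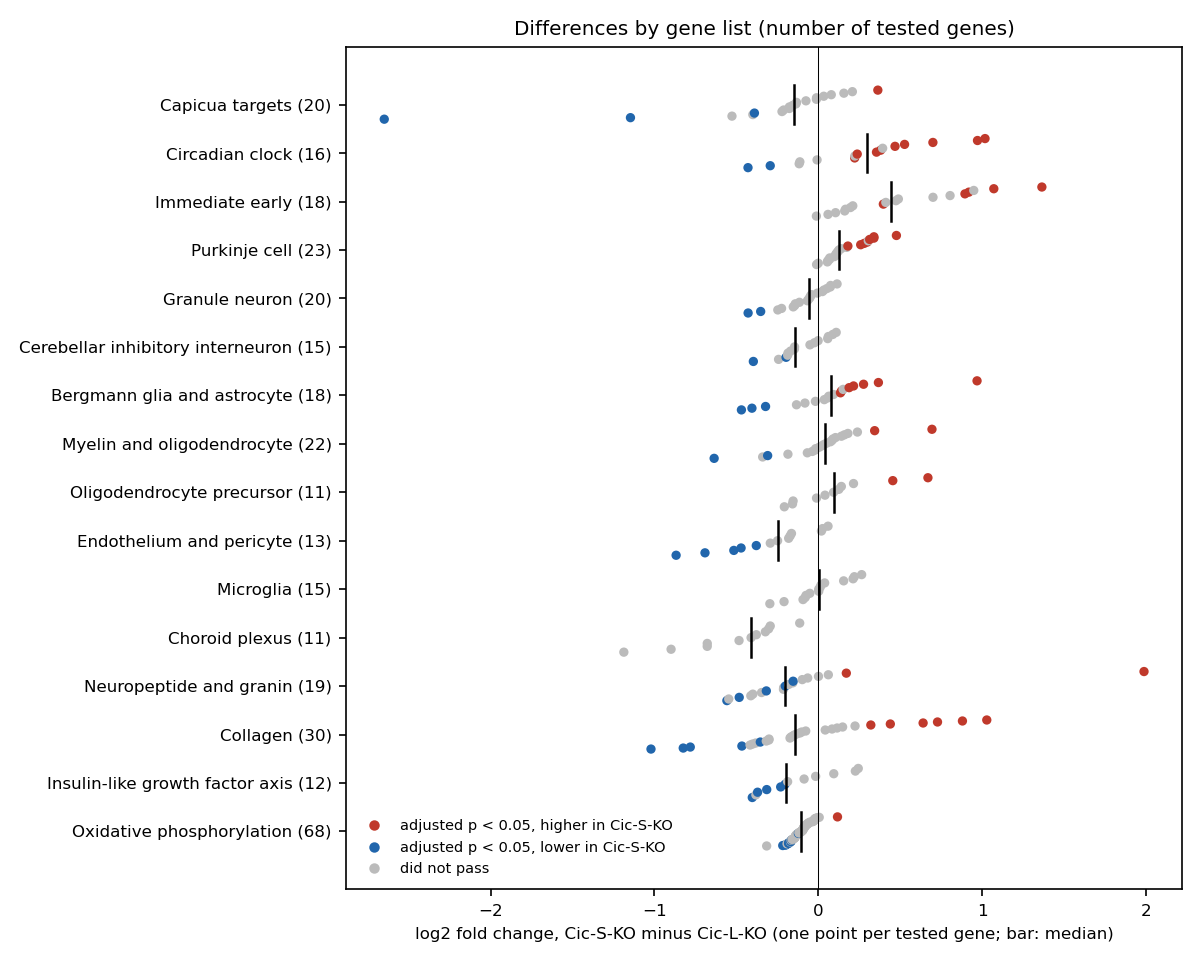
Log2 difference (x axis, Cic-S-KO minus Cic-L-KO) of each tested gene in 16 lists, coloured where the adjusted p was under 0.05, with the list median as a bar. The circadian clock list has 9 genes higher and 2 lower, all 8 called Purkinje cell genes are higher, and all 5 called endothelium and pericyte genes are lower in Cic-S-KO.

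Genes of the circadian clock had the largest share of called members of any list, 11 of 16 (68.8%, against 11.9% of all genes), 9 higher and 2 lower in Cic-S-KO, with a median of 0.30. The same count of 11 was found with every single sample left out. Tef, a PAR-domain transcription factor driven by the clock, was 299 to 357 CPM in Cic-S-KO (median 330) and 208 to 267 CPM in Cic-L-KO (median 228), without overlap (log2 difference 0.53 ± 0.05 SE, adjusted p = 7.12e-07). Its relatives Hlf and Dbp differed by 0.38 ± 0.05 (adjusted p = 3.96e-05) and 1.02 ± 0.15 (adjusted p = 0.000425). Per3, a period gene, was 44.6 to 54.7 CPM against 22.5 to 34.9 CPM (0.70 ± 0.07 SE, adjusted p = 5.03e-06). Ciart, a clock repressor, was 12.8 to 20.5 CPM against 5.24 to 9.69 CPM (0.97 ± 0.12 SE, adjusted p = 2.36e-05).

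The 2 clock genes that were lower in Cic-S-KO were Arntl (BMAL1), the activator of the PAR-domain and period genes, by -0.29 ± 0.07 (SE, adjusted p = 0.0105), and Nfil3, a repressor that competes with the PAR-domain factors, by -0.43 ± 0.11 (adjusted p = 0.0142). WT overlapped both knockouts for Tef (228 to 360 CPM) and for Arntl (33.4 to 57.3 CPM). The labels used here give no time of day at which tissue was taken, so genotype and time of collection cannot be told apart for these genes.

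Immediate early genes, which neurons switch on within minutes of activity, were higher in Cic-S-KO where they differed. Of 18 tested, 5 were called (27.8%, against 11.9% of all genes), and the median of the list was 0.44. Egr1 was 31.5 to 63.2 CPM in Cic-S-KO (median 40.5) and 18 to 24.3 CPM in Cic-L-KO (median 20.2), with WT at 27.3 to 51 CPM (log2 difference 1.07 ± 0.11 SE, adjusted p = 1.48e-05). Egr4 differed by 0.90 ± 0.16 (adjusted p = 0.00132), by 1.38 in males alone (adjusted p = 0.00213) and by 0.47 in females alone (adjusted p = 0.0996). Egr3 was low, at 0.776 to 3.21 CPM against 0.258 to 0.907 CPM, and differed by 1.37 ± 0.36 (SE, adjusted p = 0.0164), by 0.52 in males alone (adjusted p = 0.433) and by 2.24 in females alone (adjusted p = 0.0218). Nr4a1 differed by 0.92 ± 0.24 (adjusted p = 0.0245) and was not called without Cic-S-KO replicate 2, without Cic-S-KO replicate 3 or without the 3 samples highest in brainstem markers, nor in either sex alone. Fos, the best known member, was 17.7 to 119 CPM in Cic-S-KO and 18.2 to 62.4 CPM in Cic-L-KO, with an adjusted p of 0.484. Without Cic-S-KO replicate 2, without Cic-S-KO replicate 3 and without the 3 samples highest in brainstem markers, 3 members were called. Males alone also gave 3, and females alone 2.

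Among glucocorticoid-responsive genes 6 of 16 were called (37.5%, against 11.9% of all genes), 2 higher and 4 lower in Cic-S-KO. Cdkn1a, the CDK inhibitor p21, was 15.2 to 29.4 CPM against 33.2 to 41.8 CPM, without overlap (log2 difference -0.89 ± 0.12 SE, adjusted p = 0.000192). Pdk4, a kinase that restrains pyruvate oxidation, was 11.2 to 13.4 CPM against 15 to 20.1 CPM (-0.54 ± 0.07 SE, adjusted p = 5.96e-05). WT overlapped both knockouts for Cdkn1a and Pdk4. The 2 higher genes were Hif3a, by 1.02 ± 0.30 (SE, adjusted p = 0.0399), and Tsc22d3, by 0.26 ± 0.08 (adjusted p = 0.0325), both with overlapping groups. Tsc22d3 was not called in males alone (0.13, adjusted p = 0.4) or in females alone (0.38, adjusted p = 0.0556). Without Cic-S-KO replicate 4, or without Cic-L-KO replicate 7, 3 members of the list were called.

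Neurotransmitter receptors and channels differed by small amounts. Of 19 GABA and glycine receptor genes 5 were called, 3 higher and 2 lower (26.3%, against 11.9% of all genes). The metabotropic GABA-B receptor subunits were both higher in Cic-S-KO, Gabbr1 by 0.27 ± 0.04 (SE, adjusted p = 0.000162) and Gabbr2 by 0.32 ± 0.05 (adjusted p = 0.000207). Of 25 glutamate receptor genes 2 were called (8%, against 11.9% of all genes), both higher, among them the AMPA receptor gene Gria1 (0.31 ± 0.06 SE, adjusted p = 0.00374). For this list 4 were called without Cic-S-KO replicate 6 or without Cic-L-KO replicate 4, and 5 without the 3 samples highest in brainstem markers. Of 38 potassium channel genes 8 were called (21.1%, against 11.9% of all genes), 7 higher and 1 lower. The lower gene was Kcnk1, a leak channel, at 166 to 199 CPM against 199 to 226 CPM (-0.23 ± 0.04 SE, adjusted p = 0.00114), and it differed by -0.14 in males alone (adjusted p = 0.149). Kcnd3, an A-type channel, differed by 0.28 ± 0.06 (adjusted p = 0.00247). Of 28 sodium and calcium channel genes 4 were called (14.3%, against 11.9% of all genes), all higher, among them Cacna1g, a T-type calcium channel (0.28 ± 0.06 SE, adjusted p = 0.00488).

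Neuropeptide and granin genes were called in 7 of 19 cases (36.8%, against 11.9% of all genes), 5 lower and 2 higher in Cic-S-KO. The median of the list was -0.20. Beside Npy, described above, Penk, the enkephalin precursor, was 53.1 to 59 CPM in Cic-S-KO and 72.2 to 102 CPM in Cic-L-KO, with WT at 55.7 to 66.6 CPM (log2 difference -0.56 ± 0.06 SE, adjusted p = 6.69e-06). Scg3, a granin that sorts cargo into secretory granules, differed by -0.20 ± 0.04 (adjusted p = 0.00126). The summed level of the list was 3298 to 3813 CPM in Cic-S-KO and 3686 to 4080 CPM in Cic-L-KO.

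Collagen genes split by direction, 11 of 30 called (36.7%, against 11.9% of all genes), 6 higher and 5 lower in Cic-S-KO. Higher were Col23a1, a transmembrane collagen, at 19 to 29.6 CPM against 14.4 to 16.2 CPM (log2 difference 0.73 ± 0.07 SE, adjusted p = 3.19e-06), Col9a2 by 0.64 ± 0.08 (adjusted p = 2.36e-05) and Col13a1 by 1.03 ± 0.14 (adjusted p = 6.27e-05). Lower were the fibrillar collagen Col27a1, at 11.4 to 14.8 CPM against 19.3 to 32.6 CPM (-1.02 ± 0.11 SE, adjusted p = 9.03e-06), and the cartilage collagen Col2a1, at 5.13 to 8.94 CPM against 9.14 to 15.1 CPM (-0.82 ± 0.12 SE, adjusted p = 0.000194). Also lower were the basement membrane pair Col4a1 (-0.47 ± 0.10 SE, adjusted p = 0.00528) and Col4a2 (-0.35 ± 0.08 SE, adjusted p = 0.00543). The count of called collagen genes was 11 with each single sample left out.

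In the insulin-like growth factor axis 5 of 12 tested genes were called, all lower in Cic-S-KO (41.7%, against 11.9% of all genes). The median of the list was -0.19. The summed level was 470 to 529 CPM in Cic-S-KO and 530 to 583 CPM in Cic-L-KO, without overlap. Igf1r, the receptor that carries the IGF-1 signal, was 91.5 to 110 CPM against 117 to 138 CPM (log2 difference -0.31 ± 0.05 SE, adjusted p = 0.000173), and the ligand Igf1 differed by 0.09 ± 0.09 (adjusted p = 0.536). Of 32 genes of the RAS to ERK cascade 7 were called (21.9%, against 11.9% of all genes), 3 higher and 4 lower. Fgfr1, an FGF receptor, was 134 to 157 CPM against 165 to 200 CPM (-0.31 ± 0.05 SE, adjusted p = 0.000138), and Rps6ka2, an ERK-activated kinase, differed by -0.35 ± 0.06 (adjusted p = 0.000385). Without Cic-S-KO replicate 2, or without Cic-S-KO replicate 4, 4 genes of the cascade were called.

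Nuclear genes of oxidative phosphorylation shifted by a small amount, with a median of -0.10 and 66 of 68 log2 differences below 0. Of these 68 genes 13 were called (19.1%, against 11.9% of all genes), 12 lower and 1 higher in Cic-S-KO. Cycs, cytochrome c, was 169 to 198 CPM against 193 to 222 CPM (log2 difference -0.22 ± 0.04 SE, adjusted p = 0.000588), and Cyc1, a complex III subunit, was 141 to 152 CPM against 153 to 177 CPM (-0.17 ± 0.03 SE, adjusted p = 0.00257). The count depended on single samples: 26 were called without Cic-L-KO replicate 8, 23 without Cic-S-KO replicate 6, and 8 without any one of Cic-S-KO replicates 1, 2 and 3 or Cic-L-KO replicate 3. Females alone gave 0 called members. Males alone gave 19, and Cyc1 was not among them (-0.16, adjusted p = 0.0583).

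Each sex alone has fewer samples, and over all genes males alone gave 1306 called genes and females alone 877, against 1906 with all samples. Counts of called members moved by over 1.5 times in one sex or both for further lists. Whether any list moved more than all genes did was not tested. Bergmann glia and astrocyte markers gave 7 in males and 5 in females, neuropeptide and granin genes 9 and 3, and collagen genes 10 and 7. Glucocorticoid-responsive genes gave 4 and 2, glutamate receptor genes 6 and 4, and GABA and glycine receptor genes 4 and 3. Listed Capicua targets gave 4 and 2, myelin markers 3 and 2, and potassium channel genes 5 and 6. Genes of the RAS to ERK cascade gave 4 in each sex, and those of the insulin-like growth factor axis 3 in males and 5 in females.

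**Figure D4:**
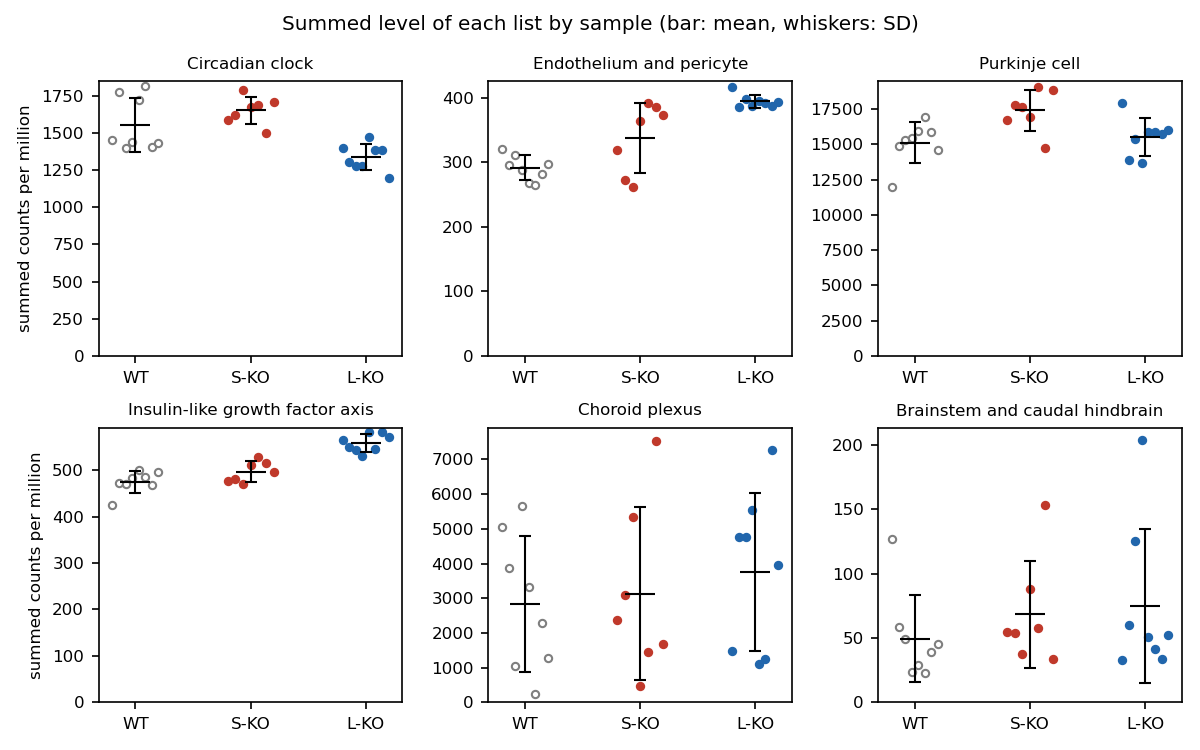
Summed CPM (y axis, linear, from 0) of 6 gene lists in each WT (open grey), Cic-S-KO (red) and Cic-L-KO (blue) sample, with mean and SD. The circadian clock and insulin-like growth factor sums do not overlap between the knockouts, the endothelial sum has 3 low Cic-S-KO samples, and the choroid plexus and brainstem sums vary widely within every group.

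The difference between the knockouts was then compared with the same difference in the cortex, in a joint fit of the 15 cerebellum samples and 15 cortex knockout samples of the same age and batch (7 Cic-S-KO and 8 Cic-L-KO). The labels do not say whether cortex and cerebellum came from the same animals. The interaction passed in 1969 of 17624 genes, or 11.2%, with 989 more positive and 980 more negative in the cerebellum. Npy differed in opposite directions. In the joint fit it was 11.2 ± 2.07 CPM in Cic-S-KO and 2.82 ± 0.753 CPM in Cic-L-KO in the cerebellum (SD, n = 7 and n = 8), and 52.8 ± 5.5 CPM and 110 ± 7.64 CPM in the cortex. The interaction of Npy was 3.06 ± 0.16 on the log2 scale (SE, adjusted p = 2.44e-14, edgeR). Tnc also changed sign, at 1.5 in the cerebellum and -0.50 in the cortex (interaction 2.01 ± 0.17 SE, adjusted p = 4.42e-10).

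Lhpp was lower in Cic-S-KO cerebellum (-1.02) and slightly higher in Cic-S-KO cortex (0.20), an interaction of -1.23 ± 0.09 (SE, adjusted p = 4.5e-12). Pappa differed in the cerebellum (-1.79) and by -0.16 in the cortex, where it was near 1 CPM (interaction -1.64 ± 0.26 SE, adjusted p = 2.6e-05). Conversely, Colq, which anchors acetylcholinesterase, differed by -0.49 in the cerebellum and by -3.68 in the cortex (interaction 3.19 ± 0.19 SE, adjusted p = 2.44e-14). The membrane-shaping gene Pacsin2 and the signalling regulator Ubash3b had larger negative differences in the cortex, with interactions of 1.02 and 0.86. Mtss1, which also shapes membranes, differed by 0.16 in the cerebellum, where it did not pass, and by -0.98 in the cortex (interaction 1.14). Atxn1 was lower in Cic-S-KO in both regions, by -0.58 in the cerebellum and -1.13 in the cortex (interaction 0.55 ± 0.08 SE, adjusted p = 4.41e-06).

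The interaction did not pass for Maff, which differed by -2.65 in the cerebellum and -2.49 in the cortex (interaction -0.15 ± 0.27 SE, adjusted p = 0.808). It did not pass either for Hsd17b12 (0.04 ± 0.06, adjusted p = 0.778), Tef (-0.07 ± 0.06, adjusted p = 0.601), Kdr (0.21 ± 0.15, adjusted p = 0.416), Egr1 (0.28 ± 0.21, adjusted p = 0.478) or Th (0.59 ± 0.25, adjusted p = 0.134). Etv4, which did not pass in the cerebellum, differed by -0.89 in the cortex, and its interaction passed (0.77 ± 0.09 SE, adjusted p = 1.14e-07).

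**Figure D5:**
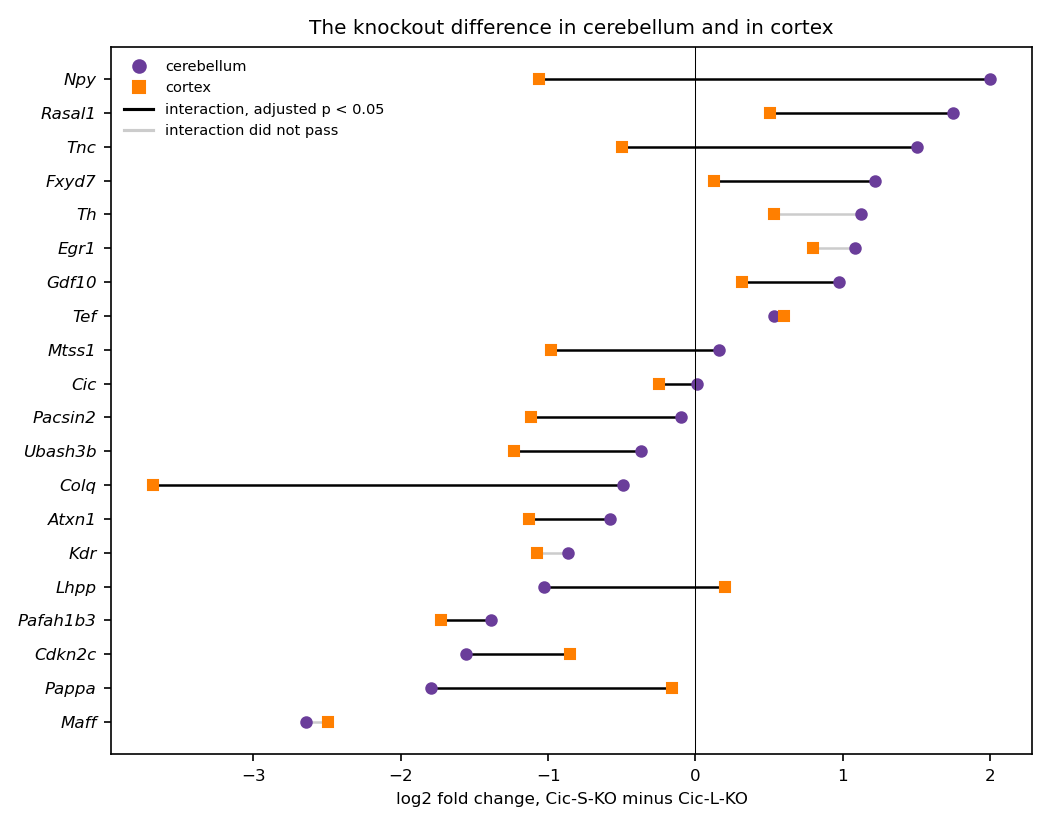
Log2 difference between the knockouts (x axis, Cic-S-KO minus Cic-L-KO, joint fit) of 20 genes in the cerebellum (purple circles) and the cortex (orange squares), joined by a black line where the interaction had an adjusted p under 0.05. Npy, Tnc and Lhpp lie on opposite sides of 0 in the regions, while the Maff symbols nearly coincide at -2.65 and -2.49.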

How the data were processed

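RNA was extracted with the miRNeasy kit from flash-frozen tissue and libraries were made by polyA selection, per the labels' protocols. Reads were aligned with STAR 2.7 to GRCm38.p6, per the submitters' processing notes. The counting program, annotation and strand setting are not given in the sources used here. The authors deposited raw counts per gene for 50789 identifiers, of which 50725 matched GENCODE M21 by identifier.

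Genes were kept by filterByExpr, scaled by TMM and tested with edgeR 4.0.16 (robust quasi-likelihood F test, R 4.3.3) over the 7 Cic-S-KO and 8 Cic-L-KO cerebellum samples. Called means a Benjamini-Hochberg adjusted p under 0.05 over all tested genes. SE is the absolute log2 difference divided by the square root of F. CPM values are TMM-scaled over the 23 cerebellum samples. The comparison with cortex was an interaction term over 30 samples. DESeq2 1.42.0 was an alternative. On simulated data for the knockout comparison over 16053 genes, edgeR recovered 177 of 200 genes changed by 1 on the log2 scale, with 3.8% false calls. DESeq2 recovered 175 with 13.4% false calls. The interaction test in edgeR, over 17624 genes, recovered 153 of 200 with 5.56% false calls. The simulated samples did not vary in brainstem or choroid plexus content, so these rates may not hold for the real samples. Of 49 replicate pairs 0 were identical.

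The comparison, gene lists and tests were chosen with earlier results of these data known. Named genes were Cic, Atxn1 and Atxn1l, the 10 largest differences in each direction at a mean log2 CPM of at least 1, the 10 smallest p, up to 4 called genes per list, all called Capicua targets, the 5 smallest interaction p, genes within 200 kb of Cic, and up to 5 with WT in between. Some items are not reported here. Further list members, Gpr3 and the genes with printed promoters were chosen after their values were seen. Markers of meninges and fibroblasts gave 1 called gene of 11 (9.09%, against 11.9% of all genes). The called gene was Dcn, higher in Cic-S-KO by 0.44 (adjusted p = 0.00047, edgeR). Dcn differed by 0.18 in males alone (adjusted p = 0.173) and by 0.64 in females alone (adjusted p = 7.59e-05). Males alone gave 3 called members of this list and females alone 1. Sex-linked genes gave 0 of 9 in edgeR and 0 in DESeq2.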

Additional observations from a re-analysis of the deposited data

Results flagged for a closer look

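In 7 of 78 groups of values checked, 1 sample stood apart from the rest of its group, where chance gives about 3.9. Cic was 182.7 CPM in Cic-S-KO replicate 6, below the next value of 207.9 CPM. Gm32122 was 2.141 CPM in Cic-L-KO replicate 4, above the next value of 0.867 CPM. Tnc was 8.455 CPM in Cic-L-KO replicate 7, Tiam2 was 18.91 CPM in Cic-L-KO replicate 4, and both were the lowest of their group. Egr1 was 63.15 CPM in Cic-S-KO replicate 2, Maff was 2.557 CPM in Cic-S-KO replicate 5 and Gpr153 was 48.76 CPM in Cic-S-KO replicate 7, each the highest of its group. Cic-S-KO replicate 6 and Cic-L-KO replicate 4 are among the 3 samples highest in brainstem markers, and the part of these markers in the values was not tested.

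The difference between the knockouts itself differed between cerebellum and cortex in 18 of 31 named genes checked, by the interaction test in edgeR. Of all 17624 genes tested, 11.2% passed. The named genes include the 5 with the smallest interaction p, and most others were named for the size or p of their cerebellar difference. Their share therefore depends on how they were chosen. The interaction, cerebellum minus cortex on the log2 scale, was 3.062 for Npy, 3.192 for Colq, 1.017 for Pacsin2, 1.137 for Mtss1, 0.8614 for Ubash3b, 1.244 for Rasal1, 2.006 for Tnc, 0.5505 for Atxn1, 0.2555 for Cic, 1.093 for Fxyd7 and 0.3406 for Pafah1b3. It was negative for Lhpp (-1.225), Pappa (-1.636), Tiam2 (-0.5176), Cdkn2c (-0.7094), Cd164l2 (-0.8186), Ttc9 (-0.138) and 6530403H02Rik (-0.8924). For Cic, the value in the cortex was -0.25 with an adjusted p of 3.91e-05.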

How the results depend on the processing

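The count of 1906 genes became 408 with a log2 difference of at least 0.5 required, and 877 in females alone, a fit with fewer samples added after seeing the data. Correlations of same-numbered samples' deviations were -0.29 to 0.18 by title number (3 of 7 over 0.1, best with its own number in 1 of 7) and -0.0068 to 0.2 by library number (4 of 7 and 2 of 7). Not every pair was over 0.1, so the numbers were not taken as pairing the samples. With a replicate block the count was 967 by title number, of which 947 were among the 1906, and 1254 by library number. The cause of these lower counts was not tested. Among 117 named genes, 13 and 9 lost their call under these blocks, with Spry1, Svep1, Nr4a1 and Ndrg1 among those lost under both. Leaving out each sample in turn gave 1441 to 2204 genes, DESeq2 gave 2384, RLE scaling 1921, no filter 1634, sex as a covariate 1972 and a brainstem marker covariate 2706. Males alone gave 1306, with 4 of the 1906 in the opposite direction, and 0 of the 117 named genes reversed in these settings. Of the 117 named genes, 28 lost their call in males alone and 37 in females alone. The interaction count of 1969 became 745 with a difference of at least 0.5 required, and 1973 with a replicate block over both regions, of which 1750 were among the 1969. Cortex and cerebellum samples of one number correlated at -0.027 to 0.22 (6 of 15 over 0.1), and 8 of 15 correlated best with their own number, a hint from the data and not the design. Every sample had at least 20440799 counts. Low genes such as Egr3 and Upp1 had wide errors. Errors were wider still for some abundant genes that varied within groups, such as Xist (SE 1.64) and Ttr (SE 0.67).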

Other observations

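The difference between the knockouts depended on sex in 85 of 16053 genes by a genotype by sex interaction in edgeR, added after seeing the data, with sex read from Y-linked and Xist counts. The 2 smallest p-values belonged to genes of vessels, chosen after their values were seen. For Jcad, a junction protein of endothelial cells, the difference was 0.77 ± 0.10 higher in females than in males on the log2 scale (SE, adjusted p = 0.00442). For Flt1, a VEGF receptor, it was 0.68 ± 0.10 higher (adjusted p = 0.0175). The replicate numbers follow sex in these samples.

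Of 22 cholesterol synthesis genes 2 were called (9.09%, against 11.9% of all genes), Insig1 by 0.41 and Lss by 0.31, both higher in Cic-S-KO. Without Cic-L-KO replicate 4, 7 were called. Of 7 FMRP family genes 1 was called (14.3%, against 11.9% of all genes), Cyfip2 by 0.14. Of 18 catecholamine genes 3 were called (16.7%, against 11.9% of all genes), 1 higher and 2 lower, among them Th (1.12) and the adrenergic receptor gene Adra1b (-0.47).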
